A study of Oryza sativa with 6 samples.

Results

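The genes described here are 10 rice loci that shape the root system or move auxin through it. They were taken as a set by locus name: *CRL1* (LOC_Os03g05510), *CRL4* (LOC_Os03g46330), *CRL5* (LOC_Os07g03250), *WOX11* (LOC_Os07g48560), *QHB* (LOC_Os01g63510), *OsSHR1* (LOC_Os07g39820), *OsSCR1* (LOC_Os11g03110), *DRO1* (LOC_Os09g26840), *OsPIN2* (LOC_Os06g44970) and *OsAUX1* (LOC_Os01g63770). By their locus names *QHB* and *OsAUX1* are on chromosome 1, *CRL1* and *CRL4* on chromosome 3, *OsPIN2* on chromosome 6, *OsSHR1*, *WOX11* and *CRL5* on chromosome 7, *DRO1* on chromosome 9 and *OsSCR1* on chromosome 11. All 10 were found among the 55982 loci of the deposited tables. RNA was sequenced from whole roots of OE15, OE20 and the WT (cultivar ZH11), with 2 libraries per genotype and 6 in all. In the ZH11-derived transgenic lines OE15 and OE20, kept under hygromycin selection, the CaMV 35S promoter drives the coding sequence of *OsMYB305*, a MYB transcription factor. The labels give 14 days and MS culture solution for all plants, the WT included. The study's methods differ, naming Yoshida's solution and a harvest at the tillering stage. All plants received 0.288 mM NH4NO3, the low nitrogen supply of the study, so no library shows the response to nitrogen itself. The number of plants in each library is not given in the sources used here.

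Rice has a fibrous root system in which most roots are crown roots that arise from the stem base. Auxin is carried from cell to cell by influx carriers of the AUX family and efflux carriers of the PIN family, and its maxima start crown and lateral roots and direct gravitropism. Within the root tip, a quiescent centre keeps the stem cells, and the GRAS proteins SHORT-ROOT and SCARECROW pattern the cortex and endodermis around the stele.

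In these roots none of the genes passed the test with a change above 1.5-fold in either line. *OsPIN2* was 18.4% lower in OE15 than in the WT, the one difference from the WT that passed the test without a limit on its size. *WOX11* was higher in OE15 than in OE20, a difference that no longer passed when any library was left out. *CRL1* was lower in OE15 mainly through 1 of its libraries. The values are FPKM, fragment numbers scaled to transcript length and library size, so levels can be compared between genes. The 20627 loci that averaged 1 FPKM or more were tested with limma on log2(FPKM + 0.1), with Benjamini-Hochberg adjustment over all of them. A call required both an adjusted p below 0.05 and more than a 1.5-fold change. Of the 10 genes, 8 passed the minimum. *QHB*, at a mean of 1.10 FPKM, was the lowest gene inside it, and *DRO1*, at 0.684 FPKM, was the highest outside.

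*OsMYB305* (LOC_Os01g45090) was at 150.2 and 148.3 FPKM in OE15, 81.3 and 80.2 FPKM in OE20, and 0.0388 and 0.0576 FPKM in the WT. Relative depth, estimated on 961 loci of very low FPKM, was 0.984 to 1.36 times that of WT replicate 1, with WT replicate 2 the deepest. All 6 loci of a root transporter list were above 0 FPKM in every library. Their sum was 1415 to 1420 FPKM in OE15, 1545 to 1554 FPKM in OE20 and 1234 to 1238 FPKM in the WT. At an adjusted p under 0.05 from limma, 5 of the 6 were higher in OE15 and 6 in OE20, beside 10.5% and 6.4% of all loci. A list of 7 photosynthesis loci of green tissue was also above 0 FPKM throughout, though LOC_Os12g17600 fell to 0.0684 FPKM in OE15 replicate 2. The sum of the 7 was 224.1 to 225.6 FPKM in OE15, 214.6 to 218.9 FPKM in OE20 and 222 to 232.6 FPKM in the WT.

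The levels of the genes ran from *OsAUX1* at the top to *CRL5*, which was close to absent from the tables. The mean over the 6 libraries was 46.4 FPKM for *OsAUX1*, 17.2 FPKM for *OsPIN2*, 8.03 FPKM for *OsSHR1*, 6.74 FPKM for *CRL1*, 5.76 FPKM for *CRL4*, 4.50 FPKM for *OsSCR1* and 2.34 FPKM for *WOX11*. In this order the ranges of *OsSHR1* and *CRL1* overlapped, as did those of *CRL1* and *CRL4*, and each other pair of neighbours was separate in all libraries. The most even genes were *OsAUX1* and *QHB*, whose highest library was 1.08 and 1.09 times their lowest. *CRL1* was the most uneven of the genes above 1 FPKM, with a highest library 2.08 times its lowest. The plot of FPKM by library shows these ranges.

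**Figure D1:**
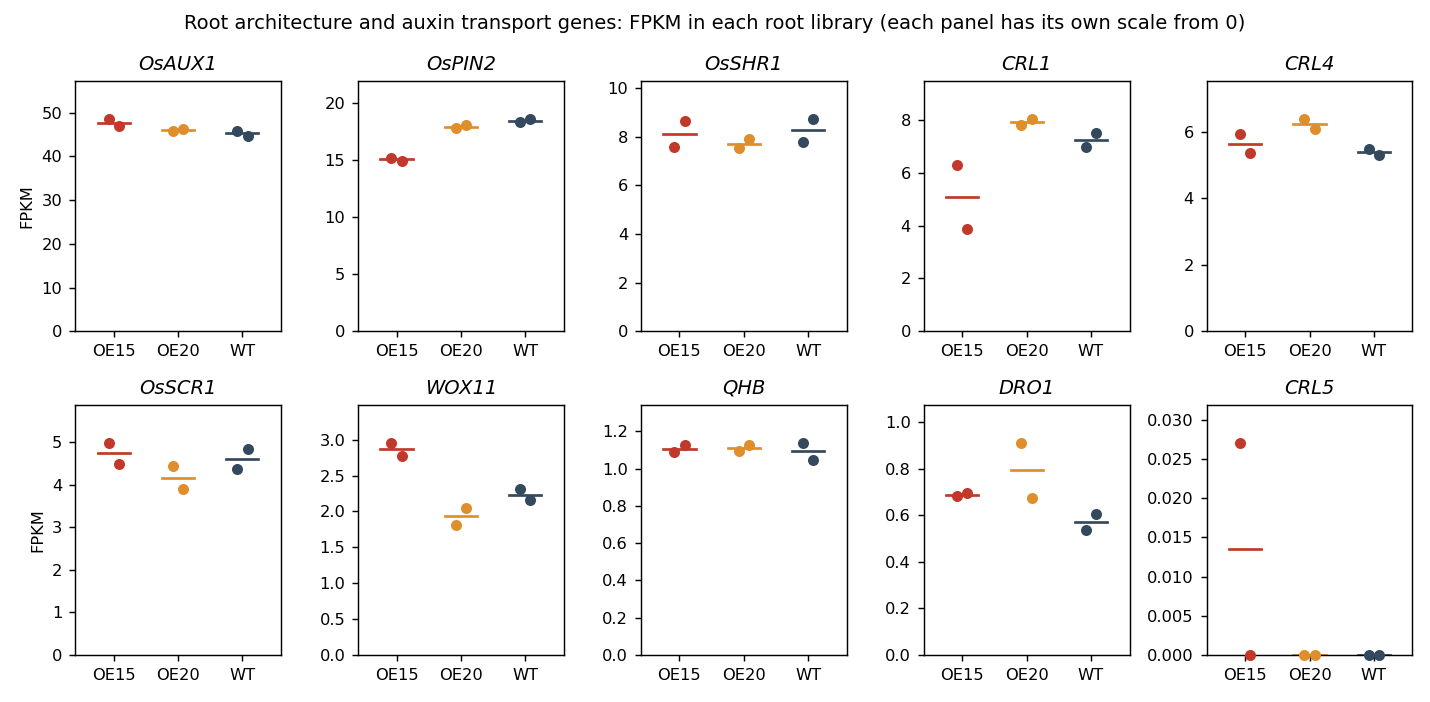
FPKM (vertical axis, each panel from 0 on its own scale) of the 10 genes in the OE15, OE20 and WT root libraries, where each point is a library and each bar the mean of 2. *OsPIN2* sits near 15 FPKM in OE15, below the other 4 libraries, 1 OE15 library of *CRL1* stands at 3.85 FPKM, and *CRL5* is listed at 0 in 5 libraries.

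Tested against the WT with limma, 0 of the 8 genes were called in OE15 and 0 in OE20. Over all loci, 5.5% were called in OE15 (2.9% higher and 2.59% lower) and 3.11% in OE20 (1.46% higher and 1.64% lower). Without the limit on the fold change, 1 of the 8 (*OsPIN2*) had an adjusted p under 0.05 in OE15 and 0 had one in OE20, where the shares over all loci were 20.4% and 11.9%. An unadjusted p under 0.05 was found for 3 of the 8 in OE15 (*OsPIN2*, *CRL1* and *WOX11*) and for 1 in OE20 (*CRL4*), beside 34.5% and 27.4% of all loci. Leaving out the sign, the log2 fold changes had a median of 0.07 over the 8 genes in OE15, against 0.14 over all loci, and 0.11 in OE20, against 0.11 over all loci. In OE15 the whole 95% interval of limma, which is not adjusted for the number of loci, lay within 1.5-fold for 6 of the 8 genes, all but *CRL1* and *WOX11*. In OE20 it did so for 7, all but *CRL1*. The 2 WT libraries served as the control for OE15 and for OE20. Nothing says that the libraries of a genotype came from separate cultures, so the p-values measure the spread between these libraries, which may be technical.

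The auxin transport genes were the best measured. *OsPIN2* encodes an efflux carrier that moves auxin away from the root tip through the outer cell layers and is needed for root gravitropism. It was at 15.2 and 14.9 FPKM in OE15, 17.8 and 18.0 FPKM in OE20, and 18.3 and 18.6 FPKM in the WT. Both OE15 libraries were below all others, and the OE20 libraries were just below the WT libraries. The mean in OE15 was 18.4% lower than in the WT, a log2 fold change of -0.29 (SE of the log2 value 0.047, 95% interval -0.40 to -0.18, adjusted p = 0.00615 from limma). The adjusted p from limma stayed under 0.05 in each alternative run, from 0.00394 to 0.0463. In OE20 the log2 fold change was -0.04 (95% interval -0.15 to 0.07, adjusted p = 0.638 from limma). The lines differed by -0.25 on the log2 scale (SE 0.047, adjusted p = 0.0193 from limma), and this adjusted p ran from 0.0127 to 0.109 over the alternatives. It was above 0.05 when any library of either line was left out (0.0894 without OE15 replicate 1, 0.109 without OE15 replicate 2, 0.0882 without OE20 replicate 1 and 0.0889 without OE20 replicate 2). In whole roots, fewer cells of a type and less RNA per cell cannot be told apart. A list of 12 loci of dividing cells (cyclins, their kinases, the replication clamp and replication helicase subunits) summed to 241.3 to 242.5 FPKM in OE15, 268.6 to 273.6 FPKM in OE20 and 245.9 to 253.7 FPKM in the WT. Against the WT, 0 of the 12 had an unadjusted p under 0.05 from limma in OE15 (34.5% of all loci) and 5 in OE20 (27.4%). The median log2 fold change of the 12 was -0.04 in OE15 and 0.13 in OE20. The part of these loci in the *OsPIN2* difference was not tested.

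*OsAUX1* encodes an influx carrier that serves lateral root initiation and root hair growth. It was at 48.5 and 47.0 FPKM in OE15, 45.9 and 46.2 FPKM in OE20, and 45.9 and 44.8 FPKM in the WT. The OE libraries lay above the WT libraries by very small steps. The log2 fold change was 0.08 in OE15 (95% interval -0.01 to 0.16, adjusted p = 0.211 from limma) and 0.02 in OE20 (95% interval -0.07 to 0.11, adjusted p = 0.751). A change of 1.5-fold, which is 0.58 on the log2 scale, lies outside both intervals.

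*CRL4* encodes a GNOM-type exchange factor of membrane traffic that places PIN proteins at the cell surface, and its mutants lack most crown roots. The locus name is the basis of this identity, since the RefSeq gene that carries the symbol OsCRL4 as a synonym is on another chromosome. It was at 5.94 and 5.35 FPKM in OE15, 6.38 and 6.09 FPKM in OE20, and 5.48 and 5.31 FPKM in the WT. The OE20 libraries were above both WT libraries and the OE15 libraries overlapped with them. The log2 fold change was 0.06 in OE15 (95% interval -0.14 to 0.27, adjusted p = 0.657 from limma) and 0.21 in OE20 (SE 0.087, adjusted p = 0.182).

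Of the crown root regulators, *CRL1* and *WOX11* had the widest intervals of the genes above 2 FPKM. *CRL1* encodes an LOB-domain transcription factor that acts downstream of auxin to start crown roots. It was at 6.30 and 3.85 FPKM in OE15, 7.79 and 8.02 FPKM in OE20, and 6.96 and 7.50 FPKM in the WT. The OE15 libraries were below the WT and the OE20 libraries above it, but the distance between the 2 OE15 libraries was larger than that between the OE20 and WT means. The log2 fold change was -0.54 in OE15 (SE 0.20, 95% interval -1.02 to -0.07, adjusted p = 0.105 from limma) and 0.13 in OE20 (95% interval -0.35 to 0.60, adjusted p = 0.735). It rested on OE15 replicate 2: without that library the log2 fold change in OE15 was -0.19 (adjusted p = 0.281 from limma), and without OE15 replicate 1 it was -0.89 (adjusted p = 0.00591). The lines differed by -0.67 on the log2 scale (adjusted p = 0.0787 from limma), and by -0.32 without OE15 replicate 2 (adjusted p = 0.149) and -1.02 without OE15 replicate 1 (adjusted p = 0.0107). LOC_Os03g05500, which precedes *CRL1* in the order of locus names and was listed as a near copy of it, was at 43.1 and 45.1 FPKM in OE15, 50.9 and 47.9 FPKM in OE20, and 43.7 and 45.7 FPKM in the WT. It showed no dip in OE15 replicate 2, and how reads shared by such copies were assigned is not given in the sources used here.

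*WOX11* encodes a WUSCHEL-related homeobox protein that promotes the emergence and growth of crown roots. It was at 2.96 and 2.78 FPKM in OE15, 1.82 and 2.04 FPKM in OE20, and 2.31 and 2.16 FPKM in the WT. The OE15 libraries lay above the WT and the OE20 libraries below it, with no overlap. Neither difference from the WT passed the test, with a log2 fold change of 0.34 in OE15 (SE 0.14, adjusted p = 0.121 from limma) and -0.20 in OE20 (95% interval -0.52 to 0.12, adjusted p = 0.385). Between the lines the log2 difference was 0.55 (SE 0.14, 95% interval 0.23 to 0.87, adjusted p = 0.0451 from limma), just under 1.5-fold. This adjusted p ran from 0.0395 to 0.19 over the alternatives and was above 0.05 whenever a library was left out (0.0632 to 0.19). In the comparison of the lines, 2 of the 8 genes (*OsPIN2* lower and *WOX11* higher in OE15) had an adjusted p under 0.05, beside 11.6% of all loci (5.45% higher, 6.12% lower), and 0 passed the limit of 1.5-fold as well, beside 2.06% (1.2% higher, 0.863% lower). An unadjusted p under 0.05 was found for 3 of the 8, those genes and *CRL1*, beside 27.6% of all loci.

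*CRL5*, an AP2-type transcription factor that starts crown roots, was listed at 0 in 5 libraries and at 0.0270 FPKM in OE15 replicate 1. It was below the minimum, and when all loci above 0 were tested its adjusted p from limma was 0.486 in OE15 against the WT and 0.53 between the lines. A value of 0 in these tables can be a failed estimate as well as a lack of fragments, and no fold change is given.

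None of the root tip patterning genes passed the test. *QHB*, a WUSCHEL-type homeobox gene of the quiescent centre, was at 1.09 and 1.13 FPKM in OE15, 1.10 and 1.13 FPKM in OE20, and 1.14 and 1.05 FPKM in the WT. Its log2 fold change was 0.02 in OE15 (95% interval -0.45 to 0.48, adjusted p = 0.961 from limma) and 0.02 in OE20 (95% interval -0.44 to 0.49, adjusted p = 0.956). The intervals are wide for so even a gene because limma gives loci of low FPKM a larger spread than these 6 values show.

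*OsSHR1*, the SHORT-ROOT gene, which acts from the stele, was at 7.58 and 8.66 FPKM in OE15, 7.54 and 7.89 FPKM in OE20, and 7.80 and 8.72 FPKM in the WT. *OsSCR1*, the SCARECROW gene of the endodermis, was at 4.98 and 4.48 FPKM in OE15, 4.43 and 3.90 FPKM in OE20, and 4.38 and 4.84 FPKM in the WT. For both genes the ranges of each line and the WT overlapped. The log2 fold change of *OsSHR1* was -0.02 in OE15 (adjusted p = 0.88 from limma) and -0.09 in OE20 (adjusted p = 0.57), and that of *OsSCR1* was 0.04 in OE15 (adjusted p = 0.846) and -0.14 in OE20 (adjusted p = 0.461). Of the 4 loci listed as near copies of the 10 genes, 3 were tested and 0 passed in either line with limma (unadjusted, 0 in OE15 and 1 in OE20 had a p under 0.05). Over all loci, 20.4% had an adjusted p under 0.05 in OE15 and 11.9% in OE20, and 34.5% and 27.4% an unadjusted one. LOC_Os12g02870, listed as a copy of *OsSCR1*, was at 6.43 and 6.35 FPKM in OE15, 6.55 and 6.30 FPKM in OE20, and 5.59 and 5.99 FPKM in the WT, with log2 fold changes of 0.14 and 0.15 (adjusted p = 0.254 and 0.276 from limma). LOC_Os03g31880, listed as a copy of *OsSHR1*, had log2 fold changes of 0.04 and 0.02.

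*DRO1* controls the growth angle of roots and is repressed by auxin. It was at 0.682 and 0.695 FPKM in OE15, 0.912 and 0.675 FPKM in OE20, and 0.535 and 0.606 FPKM in the WT. Each OE library was above both WT libraries. The gene was below the minimum, and when all loci above 0 were tested its log2 fold change was 0.24 in OE15 (adjusted p = 0.585 from limma) and 0.40 in OE20 (adjusted p = 0.412). LOC_Os07g42290, listed as a near copy, was lower still, between 0.0710 and 0.163 FPKM.

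Complete separation of the libraries was common at 2 libraries per genotype and so says little about any gene. Among the 8 genes tested, 4 did not overlap between OE15 and the WT (2 higher, 2 lower), where 62.8% of all loci did not (34.7% higher, 28.1% lower). Between OE20 and the WT 5 did not overlap (3 higher, 2 lower), where the share over all loci was 55.9% (31% higher, 25% lower). Between OE15 and OE20 6 did not overlap (3 higher, 3 lower in OE15), where the share was 57.8% (29.7% higher, 28.1% lower).

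**Figure D2:**
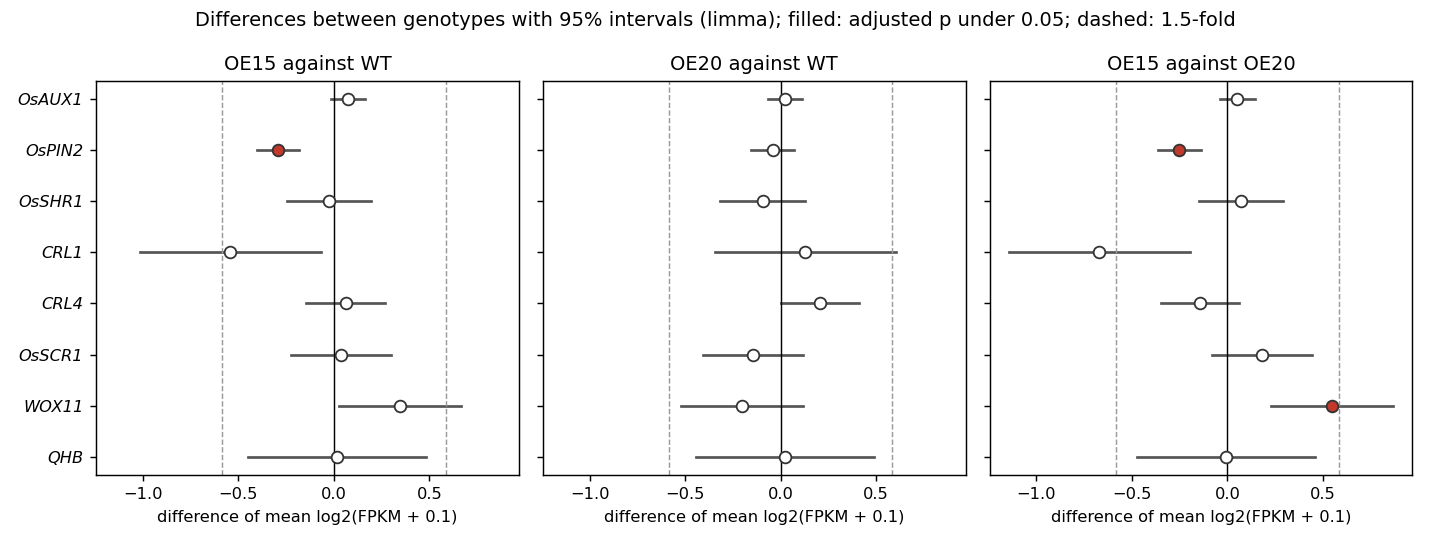
Differences of mean log2(FPKM + 0.1) (horizontal axis) between genotypes for the 8 genes tested, with the 95% interval of limma as a line. Filled points have an adjusted p under 0.05, which is *OsPIN2* in OE15 against the WT (-0.29) and *OsPIN2* (-0.25) and *WOX11* (0.55) in OE15 against OE20, and the dashed lines mark 1.5-fold.

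The other genes of auxin transport, synthesis and response were read from lists of locus names, since no table here pairs these names with symbols. Together with the 4 near copies and the other crown root regulators, 91 loci were listed, of which 1 was not analysed here and 70 were tested. In OE15, 3 were called (1 higher, 2 lower), and 13 were higher and 11 lower at an adjusted p under 0.05. In OE20, 1 was called, which was lower, and 3 were higher and 2 lower at an adjusted p under 0.05. Over all loci, 2.9% were called higher and 2.59% called lower in OE15, and 1.46% and 1.64% in OE20. At an adjusted p under 0.05 alone, 10.5% of all loci were higher and 9.89% lower in OE15, and 6.4% were higher and 5.47% lower in OE20. The median log2 fold change of the 70 was 0.03 in OE15 and 0.05 in OE20, against 0.02 and 0.02 over all loci.

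Of 11 other efflux carrier loci listed, 8 were tested, and in both lines 2 of the 8 had a log2 fold change above 0. Of all 20627 loci tested, 11255 were above 0 in OE15 and 11160 in OE20. In OE15, 3 of the 8 were lower and 0 higher at an adjusted p under 0.05 (unadjusted, 4 had a p under 0.05). In OE20, 2 were lower and 0 higher (3 unadjusted). Over all loci, 10.5% were higher and 9.89% lower in OE15 at an adjusted p under 0.05, and 6.4% and 5.47% in OE20. An unadjusted p under 0.05 was found for 34.5% of all loci in OE15 and 27.4% in OE20. The median of the 8 was -0.16 on the log2 scale in OE15 and -0.17 in OE20, against 0.02 and 0.02 over all loci. The summed level of the 11 loci was 108.6 and 108.7 FPKM in OE15, 118.8 and 120.3 FPKM in OE20, and 125.9 and 127.2 FPKM in the WT, so that both lines were below the WT and OE15 was lowest. Such a sum is weighted to the loci of highest FPKM, and the influx carrier list below had the same order.

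LOC_Os08g41720, annotated as an auxin efflux carrier component, was the called locus of this list in both lines. It was at 3.18 and 3.02 FPKM in OE15, 4.09 and 4.50 FPKM in OE20, and 7.21 and 6.72 FPKM in the WT. All OE libraries were below the WT libraries, with OE15 the lower line. The log2 fold change was -1.14 in OE15 (SE 0.098, adjusted p = 0.000384 from limma) and -0.69 in OE20 (SE 0.098, adjusted p = 0.00618), and the lines differed by -0.46 (adjusted p = 0.0291). The study lists this locus among its changed genes from the same libraries, so its direction is not independent evidence. The other efflux carrier loci that passed the adjusted p are named here after their values were seen. LOC_Os01g58860 was at 33.2 and 32.5 FPKM in OE15, 34.8 and 35.8 FPKM in OE20, and 39.1 and 40.1 FPKM in the WT, with log2 fold changes of -0.27 and -0.16 (adjusted p = 0.00453 and 0.0444 from limma). LOC_Os02g50960 was at 39.9 and 40.0 FPKM in OE15, 45.7 and 46.3 FPKM in OE20, and 44.0 and 45.3 FPKM in the WT, with log2 fold changes of -0.16 and 0.04 (adjusted p = 0.0257 and 0.497), and the lines differed by -0.20 (adjusted p = 0.018 from limma).

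Of the 4 other influx carrier loci, 1 was higher and 2 were lower in OE15 at an adjusted p under 0.05, and 0 passed in OE20 (1 had an unadjusted p under 0.05). Their summed level was 33.7 and 32.2 FPKM in OE15, 35.2 and 34.7 FPKM in OE20, and 36.6 and 37.0 FPKM in the WT. Of the 10 loci of auxin synthesis, 5 were tested. In OE15, 0 passed the adjusted p (3 unadjusted), with 4 of the 5 above 0 on the log2 scale. In OE20, 2 were higher at an adjusted p under 0.05, with 5 of the 5 above 0. The 2 auxin receptor loci did not pass in either line (0 unadjusted in OE15 and 1 in OE20), with log2 fold changes between 0.02 and 0.18. Over all loci, 10.5% were higher and 9.89% lower in OE15 at an adjusted p under 0.05, and 6.4% and 5.47% in OE20. An unadjusted p under 0.05 was found for 34.5% of all loci in OE15 and 27.4% in OE20. Of all 20627 loci, 11255 were above 0 on the log2 scale in OE15 and 11160 in OE20.

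The Aux/IAA repressors, which are early auxin response genes and hold back the response factors, moved in both directions in OE15. Of 31 listed loci, 25 were tested, and at an adjusted p under 0.05, 6 were higher and 5 lower in OE15 and 1 was higher in OE20. Over all loci, 10.5% were higher and 9.89% lower in OE15 at that limit, and 6.4% and 5.47% in OE20. LOC_Os03g43400 was at 9.48 and 10.7 FPKM in OE15, 16.9 and 16.8 FPKM in OE20, and 15.2 and 16.3 FPKM in the WT. Both OE15 libraries were below all others, with a log2 fold change of -0.64 (SE 0.074, adjusted p = 0.00142 from limma) against 0.10 in OE20 (adjusted p = 0.443), and the lines differed by -0.74 (adjusted p = 0.00195). LOC_Os06g07040 was at 24.2 and 24.6 FPKM in OE15, 17.6 and 19.5 FPKM in OE20, and 15.3 and 17.1 FPKM in the WT. It was the called higher locus in OE15, with a log2 fold change of 0.59 (adjusted p = 0.00183 from limma) that lay just above 1.5-fold. The call was lost with other scalings, at 0.51 without WT replicate 1 and at 0.58 without OE15 replicate 2, and that of LOC_Os03g43400 was lost at -0.55 without OE15 replicate 1. Of 4 other crown root regulators listed, 3 were tested, and 1 was higher in OE15 at an adjusted p under 0.05 (10.5% of all loci). In OE20, 0 of the 3 passed (0 unadjusted). Of the 25 listed auxin response factors, 20 were tested, and 5 were higher and 1 lower in OE15 at an adjusted p under 0.05 (10.5% and 9.89% of all loci). In OE20, 0 of the 20 passed, beside 11.9% of all loci (5 had an unadjusted p under 0.05, beside 27.4%). Their median was 0.01 on the log2 scale in OE15 and 0.02 in OE20.

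**Figure D3:**
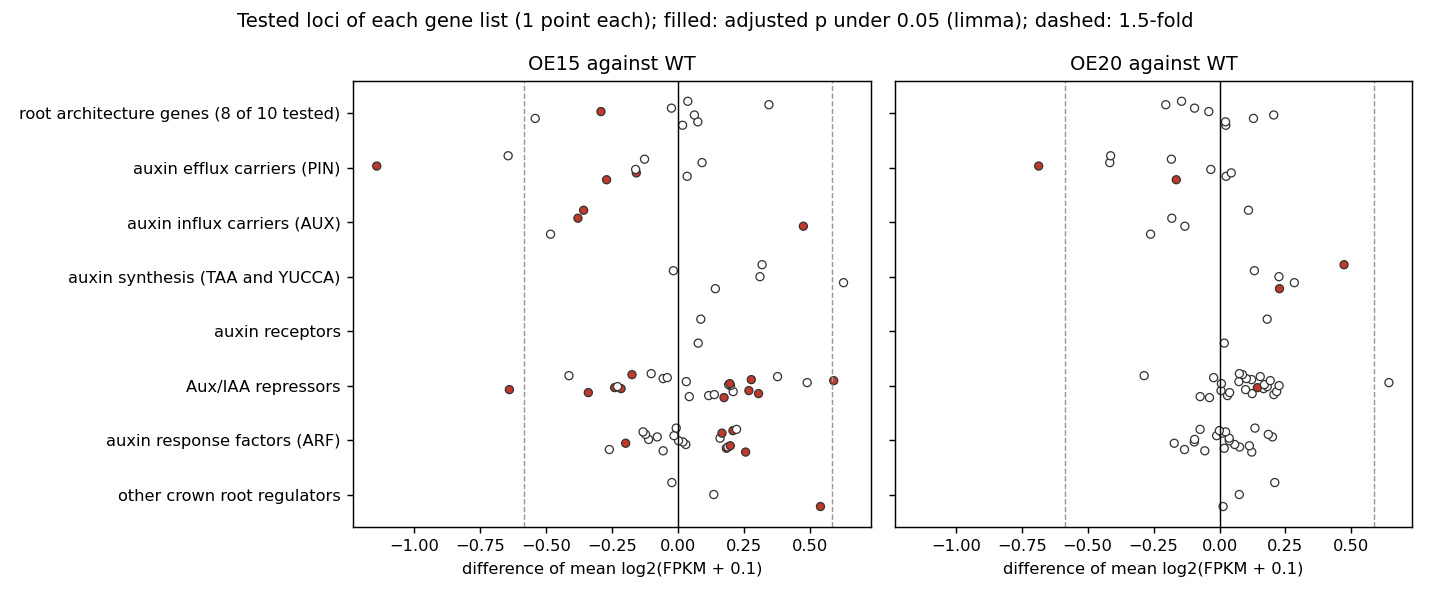
Difference of mean log2(FPKM + 0.1) from the WT (horizontal axis) in OE15 and OE20 for each tested locus of the 10 root architecture genes and of 7 lists of auxin and crown root loci. Filled points have an adjusted p under 0.05, the dashed lines mark 1.5-fold, and the efflux carrier LOC_Os08g41720 is the point farthest to the left in both panels.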

How the data were processed

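The authors deposited FPKM for each library, 1 value per locus, without pooling. Per the labels and the submitters' processing notes they used FastQC 0.11.8, Trimmomatic 0.38, HISAT2 2.1.0 and Cufflinks 2.2.1. The genome build, the annotation release, the strand setting and the handling of multiply mapped reads are not given in the sources used here, so near copies, overlapping and antisense genes may share reads, and no coordinates are printed. FPKM holds no read totals, so no counting interval is given. After 4 repeated locus names were left out, log2(FPKM + 0.1) of loci averaging 1 FPKM or more was tested with limma (version 3.58.1, run in R version 4.3.3), with a mean-variance trend and all 3 genotypes in a single model that left 3 residual degrees of freedom. Fold changes on this scale understate those of low loci. The fit was also run on simulated data, and the outcome of that run is not given here. Symbols of the 10 genes came with their locus names, and a RefSeq gene of the same symbol and chromosome was found for 5. The genes named are these 10, *OsMYB305*, the near copies, and in each list up to 4 called loci. The members and lists were chosen with earlier results of these data known, and no sequences were used here. Alternatives were other pseudocounts (1 and 0.01), minimums (none and 5 FPKM), scalings (quantile and median-ratio) and limits, a replicate block, separate fits, no trend, and each library left out in turn.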

Additional observations from a re-analysis of the deposited data

Results flagged for a closer look

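The following values stand out because the effects of the 2 lines, set against the same WT, differed in a direct limma test of OE15 against OE20 at an adjusted p under 0.05. *OsMYB305* itself was higher in OE15 by 0.89 on the log2 scale (adjusted p = 0.000886). *WOX11* was higher in OE15 by 0.55 (adjusted p = 0.0451), and *OsPIN2* was lower in OE15, with a log2 difference of -0.25 (adjusted p = 0.0193). For both genes the difference between the lines did not pass in every alternative run. Of the 70 auxin and root list loci tested, 21 had an adjusted p under 0.05 between the lines (10 higher and 11 lower in OE15). Over all loci the share was 11.6%. The listed loci named below are only some of the 21. Of the listed loci named by rule, LOC_Os03g43400 had a log2 difference of -0.74 (adjusted p = 0.00195), LOC_Os08g41720 of -0.46 (adjusted p = 0.0291) and LOC_Os06g07040 of 0.40 (adjusted p = 0.0172). Of the listed loci named after their values were seen, LOC_Os05g37470 had a log2 difference of 0.61 (adjusted p = 0.0067), LOC_Os01g58420 of 0.53 (adjusted p = 0.00139), LOC_Os11g06820 of -0.47 (adjusted p = 0.00352) and LOC_Os02g50960 of -0.20 (adjusted p = 0.018). With these contrasts, the summed level of 12 dividing-cell loci was 241.3 to 242.5 FPKM in OE15 and 268.6 to 273.6 FPKM in OE20. It was 245.9 to 253.7 FPKM in the WT, and its part in the differences was not tested.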

How the results depend on the processing

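The count of the 10 genes called in OE20 against the WT was 0 under each alternative. In OE15 against the WT it was 1 without a limit on the fold change (*OsPIN2*) and between 0 and 1 with a library left out, the 1 being *CRL1* without OE15 replicate 1. In OE15 against OE20 it was 2 without the limit and between 0 and 1 with a library left out. Of the auxin and root list loci, 24 passed without the limit in OE15 and 5 in OE20. A minimum of 5 FPKM left 0 called in OE20, because LOC_Os08g41720, the called locus, averaged 4.79 FPKM and was then not tested. With a library left out, the log2 fold change of LOC_Os08g41720 in OE20 ran from -0.75 to -0.62.

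Nothing in the labels pairs the replicate numbers across genotypes. The deviations of same-numbered libraries correlated at -0.07 to 0.03, which cannot exclude a shared batch with 2 libraries per genotype. With the replicate block, 2 list loci were called in OE20 and 3 in OE15, and 0 of the 10 genes in each line.

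Values near 0, none of them called, changed sign. With quantile scaling *QHB* in OE15 was at -0.0027 (also with median-ratio scaling), *OsAUX1* in OE20 at -0.0015 and LOC_Os03g31880 between the lines at -0.028. With a library left out, the log2 fold change in OE15 ran from -0.011 to 0.14 for *CRL4*, -0.037 to 0.072 for *QHB*, -0.12 to 0.070 for *OsSHR1*, -0.036 to 0.11 for *OsSCR1*, -0.053 to 0.012 for LOC_Os03g05500 and -0.039 to 0.12 for LOC_Os03g31880. In OE20 it ran from -0.031 to 0.079 for *QHB* and -0.12 to 0.16 for LOC_Os03g31880. Between the lines it ran from -0.030 to 0.017 for *QHB*, -0.025 to 0.17 for *OsSHR1*, -0.12 to 0.16 for LOC_Os03g31880 and -0.035 to 0.019 for LOC_Os12g02870. The call of LOC_Os06g07040 in OE15 was lost at 0.56 with a pseudocount of 1 or quantile scaling and 0.57 with median-ratio scaling. The cause of these changes was not tested. With 2 libraries per genotype and no read totals, small differences in genes near 1 FPKM were not detectable.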

Other observations

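Beyond the genes named by rule, a few listed loci were picked out after their values were seen. LOC_Os01g58420, from the list of other crown root regulators, was at 48.0 and 50.0 FPKM in OE15, 34.2 and 33.7 FPKM in OE20, and 32.5 and 34.9 FPKM in the WT. Both OE15 libraries were above all others, with a log2 fold change of 0.54 (adjusted p = 0.000481 from limma), just under 1.5-fold, against 0.01 in OE20 (adjusted p = 0.893), and the lines differed by 0.53 (adjusted p = 0.00139). LOC_Os05g37470, from the list of influx carriers, had the same shape, at 10.8 and 10.4 FPKM in OE15, 6.66 and 7.17 FPKM in OE20, and 8.06 and 7.13 FPKM in the WT. Its log2 fold change was 0.48 in OE15 (adjusted p = 0.00899 from limma) and -0.13 in OE20 (adjusted p = 0.371), with a difference of 0.61 between the lines (adjusted p = 0.0067). LOC_Os11g06820, from the same list, was at 9.54 and 9.38 FPKM in OE15, 13.0 and 13.2 FPKM in OE20, and 12.2 and 12.2 FPKM in the WT. Its log2 fold change was -0.36 in OE15 (adjusted p = 0.00491 from limma) and 0.11 in OE20 (adjusted p = 0.25), and the lines differed by -0.47 (adjusted p = 0.00352).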
